A study of Sus scrofa with 16 samples.

Results

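Plasma carrier and acute-phase proteins were examined as a group of 10 listed genes: ALB, AMBP, HP, HPX, ORM1, SERPINA1, ITIH4, CRP, LBP and SAA2. A probe was taken for a gene where the scanner files named that gene for it or gave the symbol in brackets in its description, which found 35 of the 43603 probes for 9 of the 10 genes. ALB had 20 probes, HP had 5, ITIH4 had 3, SERPINA1 had 2, and AMBP, HPX, CRP, ORM1 and LBP had 1 each. These 9 genes were among 6292 on the array with a symbol. No probe carried the symbol SAA2. The scanner files described 5 probes named LOC733603 as serum amyloid A2, whereas the RefSeq gene table (Sscrofa11.1) calls that gene SAA3 and lists SAA2 as another gene of the same cluster, so these 5 probes are given beside the others and are counted with none of them.

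The study fed Duroc × Landrace × Large White barrows on a corn and soybean based feed that held purified starch, and measured RNA of the colonic mucosa and of the liver at 170 days of age. In the CS groups this starch was corn starch, and in the RPS groups it was raw potato starch (a resistant starch), at 230 g per kg in the growing diet and 280 g per kg in the finishing diet, each fed for 50 days. There were 4 groups of 4 pigs, liver CS, liver RPS, colon CS and colon RPS, with 1 array per sample and no pooling. The labels do not say which liver and colon samples came from the same pig. A pig number is the replicate number within a group, so the same number in liver and colon need not be the same pig. All pigs shared breed, sex and age, and the mucosa was scraped from the colon, so that both samples held mixed cell types, in which fewer cells of a type and less RNA per cell cannot be told apart.

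Most plasma proteins are made by hepatocytes and secreted into the blood. Carriers such as albumin, hemopexin, haptoglobin and alpha-1-acid glycoprotein bind lipids, heme, hemoglobin and drugs, while antiproteinases limit enzymes released by leukocytes. In the acute-phase response, interleukin 6 and related cytokines signal to hepatocytes through STAT3 and C/EBP factors, so that C-reactive protein, serum amyloid A, haptoglobin and, in pigs, ITIH4 (the major acute-phase protein of this species) increase in plasma while albumin tends to fall.

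Levels were log2 signals after quantile normalization, within a tissue for the diet comparisons and over all 16 arrays for the comparison of tissues. All 35 probes were above background on the 8 liver arrays, and 61.1% to 72.2% of all probes were above background on any array. No spot was saturated. Each group lay on a slide of its own with a single scan, so that slide and group cannot be told apart, and the median spot signal before normalization was 56.3 to 70.8 in colon CS against 34.2 to 42.5 in colon RPS. All 13 measured hepatocyte markers outside the group were above background on every liver array, and 11 of 12 measured colonic epithelium markers were higher in the colon than in the liver. Colon arrays of CS pig 3 and RPS pig 2 stood apart. Their summed linear signal over the 12 epithelium markers was 150996 and 232765, against 487406 to 717704 on the other 6 colon arrays, and their sum over 3 B and plasma cell markers was 9540 and 8096, against 125 to 1801. Colon diet differences at the brightest probe of each gene, ALB apart, are therefore given with and without this pair of arrays. The pair was the lowest of the 8 colon arrays at 8 of the 12 epithelium markers. RPS pig 4, which was kept, was low at some markers, as at AQP8 (8.72 against 9.63 in RPS pig 2) and GUCA2A (15.45 against 15.37). At others it was high, as at LGALS4 (18.33), the brightest of the 12, which weighs most in a linear sum.

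The comparison of colonic mucosa with liver asked how far transcripts of these proteins were restricted to the liver. All 9 genes were lower in the colon, and all 35 probes passed an adjusted p under 0.05 (Benjamini-Hochberg, limma) with a fold change above 1.5, with differences of -17.25 to -5.08 on the log2 scale, of which those of the 11 probes dim on every colon array are only bounded. Over all probes, 42.2% passed in either direction and 18.7% passed as lower in the colon. The 8 liver and the 8 colon arrays did not overlap at any of the 35 probes, which held as lower for 12.2% of all probes, and in the exact permutation test each gave 0.000155, the smallest p that 8 against 8 arrays allow. The median difference of the 35 probes was -15.36, of which 20 were probes of ALB, and the sum of the 13 hepatocyte markers was 393 to 870 on the colon arrays against 1786900 to 2020212 on the liver arrays.

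**Figure D1:**
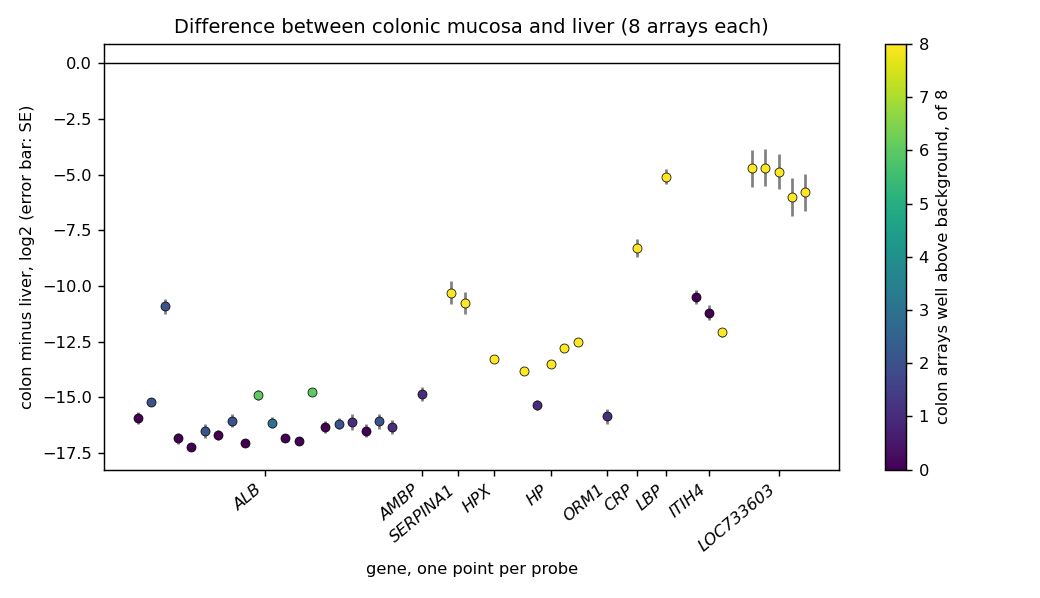
Difference between colonic mucosa and liver for each probe (vertical axis, log2 scale, with its standard error, 8 arrays per tissue), grouped by gene along the horizontal axis and coloured by the number of colon arrays on which the probe was above background. All points lie below 0, 19 of the 20 ALB probes between -17.25 and -14.74 and the other at -10.92, LBP at -5.08 and the LOC733603 probes between -5.99 and -4.68.

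The genes differed in how much signal remained in the colon. ALB, the main carrier and oncotic protein of plasma, was not above background on any colon array at 9 of its 20 probes and was above it on at most 6 of 8 arrays at the others. At the 9 dim probes liver signals were at least 29773-fold to 73349-fold above what the colon arrays could measure. Colon values of the ALB probe with the highest mean over 16 arrays were 2.21, 3.57 and 4.19 (lowest, median, highest), against 18.04, 18.22 and 18.30 in the liver. AMBP, the precursor of alpha-1-microglobulin and bikunin, was above background on 1 of 8 colon arrays, as was ORM1, which encodes alpha-1-acid glycoprotein. AMBP differed by -14.85 ± 0.31 (SE) and ORM1 by -15.85 ± 0.35, values that rest on colon signals mostly below background. None of these 3 genes had a probe that was measured on every colon array.

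Another 6 genes had at least 1 probe above background on all 8 colon arrays: SERPINA1, HP, HPX, CRP, LBP and ITIH4. SERPINA1, the inhibitor of neutrophil elastase, had colon values of 4.93, 7.22 and 10.03 (lowest, median, highest) and liver values of 17.57, 17.82 and 18.00, a difference of -10.29 ± 0.53 (SE, adjusted p = 8.43e-10). HP, the hemoglobin-binding haptoglobin, was measured on all colon arrays at 4 of its 5 probes and on 1 of 8 at the other, and its probes differed by -15.36 to -12.52. HPX, the heme scavenger hemopexin, differed by -13.30 ± 0.11. These differences were fold changes of 1254 for SERPINA1, 5892 for HP at its brightest probe and 10054 for HPX at its only probe.

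The smallest differences were those of CRP and LBP, pattern recognition proteins. CRP, which binds phosphocholine on microbes and damaged cells, had colon values of 6.74, 7.12 and 7.45 and liver values of 13.90, 14.999 and 17.27 (lowest, median, highest), a 315-fold difference. LBP, which hands lipopolysaccharide to CD14, had colon values of 4.62, 5.37 and 6.88 against 9.86, 10.32 and 11.53 in the liver, a 33.9-fold difference. LOC733603 had 5 probes above background on all colon arrays, and its brightest probe differed by -4.72 ± 0.82, a 26.3-fold difference with an adjusted p of 2.23e-04. ITIH4 was measured on every colon array at its brightest probe, which differed by -12.08 ± 0.22, but on none at the other probes, where the liver was at least 523-fold and 876-fold higher.

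The first diet comparison asked whether replacement of corn starch by raw potato starch changed these transcripts in the liver. Of the 35 probes 1 passed the thresholds used for diet, a fold change over 1.5 at an unadjusted p under 0.05 (limma), and it was lower with RPS, against 3.56% of all 43603 probes, 1.76% as lower. No member had an adjusted p under 0.05 (lowest 0.342), as 0.00229% of all probes did. Without the limit on fold change, 3 of 35 probes had an unadjusted p under 0.05, against 7.59% of all probes. Differences ran from -0.81 to 0.82 with a median of -0.02, and 21 of the 35 were below 0.

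The probe that passed was 1 of the 20 of ALB. This probe, A_72_P517168, is annotated in the files to a cDNA clone from liver. Its values were 13.36, 13.39, 13.72 and 13.69 in the CS livers and 12.81, 12.86, 12.29 and 12.97 in the RPS livers, so that the groups did not overlap, as was so for 4.45% of all probes. The difference was -0.81 ± 0.17 (SE, unadjusted p = 0.00195, adjusted p = 0.342, limma), a fold change of 1.75. The other 19 ALB probes had differences of -0.33 to 0.25, none with an unadjusted p under 0.05, and the one with the highest mean over 16 arrays had values of 18.26, 18.32, 18.38 and 18.28 with CS and 18.33, 18.27, 18.07 and 18.32 with RPS. Diet groups overlapped at each of those 19 probes. Brightness differed, with A_72_P517168 at 0.638% to 2.31% of the saturation value and the probe with the highest mean at 46.3% to 59.6%. The part of brightness in this was not tested.

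SERPINA1 was measured by 2 probes, A_72_P173811 and A_72_P795910. The sequence of the second, which starts at base 1103 of the reference transcript, is shown because it is 1 of the probes at which the widest spread of a measured member in the colon was seen.
A_72_P795910: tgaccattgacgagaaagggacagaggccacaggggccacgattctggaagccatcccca
In the liver, A_72_P173811 gave 18.03, 17.77, 18.00 and 17.95 with CS and 17.64, 17.66, 17.58 and 17.91 with RPS. A_72_P795910 gave 17.60, 17.35, 17.50 and 17.47 with CS and 17.09, 17.02, 17.11 and 17.36 with RPS. At both probes only RPS pig 4 reached into the range of the CS livers. The differences were -0.24 ± 0.10 (unadjusted p = 0.0477, adjusted p = 0.653) and -0.34 ± 0.10 (unadjusted p = 0.0115, adjusted p = 0.506, limma), fold changes of 1.18 and 1.26 that stayed below 1.5, and the exact permutation test gave p = 0.0571 at each.

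The other carriers were close to equal between diets in the liver. AMBP differed by -0.06 ± 0.10, HPX by -0.07 ± 0.12, ORM1 by -0.09 ± 0.16 and the 5 HP probes by -0.05 to 0.06. The brightest HP probe ranked first or second of all probes on each liver array, at 82.4% to 97.1% of the saturation value, and quantile normalization left it only 1.04-fold between the lowest and the highest pig, whereas the other 4 probes spread 1.42-fold to 1.64-fold. Of the other probes a pair shares 57 bases, in capitals, and is shown because the same stretch was thus read by both.
A_72_P178006: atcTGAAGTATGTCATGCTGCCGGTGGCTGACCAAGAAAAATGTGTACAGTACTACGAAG
A_72_P581127: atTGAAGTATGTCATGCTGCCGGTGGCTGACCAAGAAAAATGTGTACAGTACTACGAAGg
A_72_P178006 had 18.35, 18.80, 18.71 and 18.44 with CS and 18.39, 18.85, 18.71 and 18.58 with RPS. A_72_P581127 had 18.14, 18.69, 18.50 and 18.32 with CS and 18.16, 18.69, 18.53 and 18.38 with RPS. The 2 probes ranked pigs in nearly the same order, and the diets overlapped at both.

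**Figure D2:**
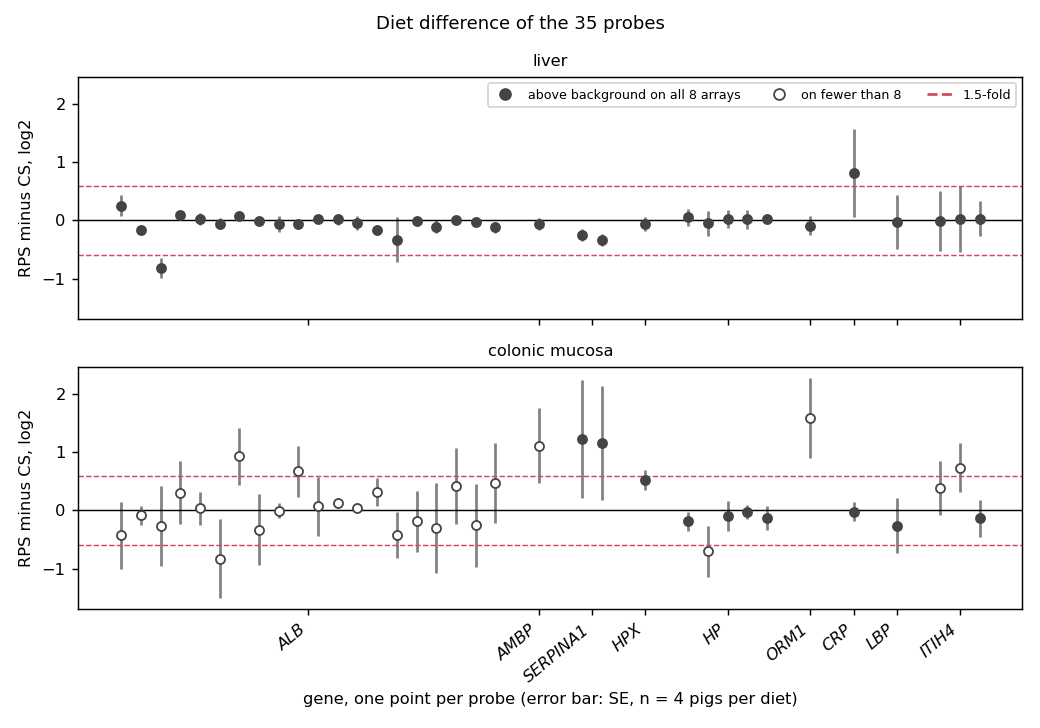
Difference between RPS and CS (vertical axis, log2 scale, with its standard error, 4 pigs per diet) for each of the 35 probes in the liver (upper panel) and the colonic mucosa (lower panel), with dashed lines at a fold change of 1.5. In the liver 1 ALB probe at -0.81 and CRP at 0.82 lie beyond the lines, whereas in the colon the open points, probes above background on fewer than 8 arrays, spread widely and SERPINA1 lies at 1.22 and 1.15 with standard errors near 1.

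Transcripts of the inducible acute-phase proteins varied more between pigs of one diet than between diets. CRP in the liver was 14.73, 16.90, 14.65 and 13.93 with CS and 15.36, 17.25, 16.09 and 14.78 with RPS, a 9.99-fold range over the 8 pigs. The diet difference was 0.82 ± 0.75 (unadjusted p = 0.312, limma, and exact permutation p = 0.343), and the groups overlapped. Its standard deviation within diets was 1.18, above that of 99.1% of the 24981 probes measured on every liver array, whose median was 0.256. CS pig 2 and RPS pig 2 were the highest of their diets.

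LOC733603, the serum amyloid A transcript, ranged more widely still. A pair of its probes carries the same 60 bases, which makes them a repeat measurement on the same array.
A_72_P165616: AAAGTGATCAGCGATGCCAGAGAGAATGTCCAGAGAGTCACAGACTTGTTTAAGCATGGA
A_72_P441669: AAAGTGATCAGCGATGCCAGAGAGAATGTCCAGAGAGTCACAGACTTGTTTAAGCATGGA
The sequence is in capitals throughout because it is shared in full. A_72_P165616 gave 15.23, 17.30, 15.80 and 13.99 in the CS livers and 15.97, 17.59, 17.88 and 13.84 in the RPS livers, a 16.4-fold range. Its twin differed from it by 0.03 to 0.15 on the 8 liver arrays, with a standard deviation of 0.05, against a standard deviation of 1.63 between pigs within diets. The repeat covers spot noise on an array only, not extraction, labelling or hybridization. The diet difference was 0.74 ± 1.04 (unadjusted p = 0.501, limma).

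ITIH4 showed nearly the same order of pigs at probes of different brightness. The sequences of the dimmer probes, which start at bases 1611 and 2092 of the reference transcript, are shown because they gave the wider range.
A_72_P164666: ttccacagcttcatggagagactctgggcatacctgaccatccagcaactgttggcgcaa
A_72_P232272: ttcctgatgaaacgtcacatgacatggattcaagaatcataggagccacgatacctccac
The brightest probe, at 28.2% to 55.5% of the saturation value, gave 17.69, 18.20, 17.52 and 18.04 with CS and 17.40, 18.39, 18.37 and 17.42 with RPS, a 1.99-fold range. A_72_P232272, at no more than 1.84% of that value, gave 12.31, 13.14, 11.68 and 12.57 with CS and 11.75, 13.53, 13.19 and 11.32 with RPS, a 4.63-fold range. A_72_P164666 ranged 4.19-fold. In all 3 probes CS pig 2, RPS pig 2 and RPS pig 3 were the highest of the 8 livers, and diet differences lay between -0.01 and 0.03. The bright probe thus had a narrower range than the dim probes of the same gene, and the part of brightness in this was not tested.

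LBP gave 9.74, 11.42, 10.41 and 9.81 in the CS livers and 10.20, 11.28, 10.11 and 9.69 in the RPS livers, a 3.31-fold range with a diet difference of -0.02 ± 0.47. Its only probe, shown because this spread rests on it alone, starts at base 767 of the reference transcript.
A_72_P236672: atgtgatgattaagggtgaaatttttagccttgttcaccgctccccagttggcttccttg
CS pig 2 and RPS pig 2 were again the highest of their diets. CS pig 2, RPS pig 2 and RPS pig 3 were the 3 highest livers at the CRP probe, at all 3 ITIH4 probes, at all 5 LOC733603 probes and at 1 of 5 HP probes, but at none of the ALB, SERPINA1, AMBP, HPX, ORM1 or LBP probes. Among these pigs 1 had eaten CS and the other 2 RPS. They were picked after the values were seen, and the share of all probes with the same highest livers was not counted. Probes of 1 gene are repeat readings of its transcript. At every HP probe but the brightest, CS pig 3 stood with these pigs above the remaining livers. At their brightest probes ALB and AMBP ranged 1.24-fold and 1.29-fold over the 8 livers, HPX 1.38-fold and ORM1 1.60-fold. Other ALB probes ranged up to 3.33-fold (A_72_P587471), and A_72_P517168, at 0.638% to 2.31% of the saturation value, ranged 2.69-fold.

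**Figure D3:**
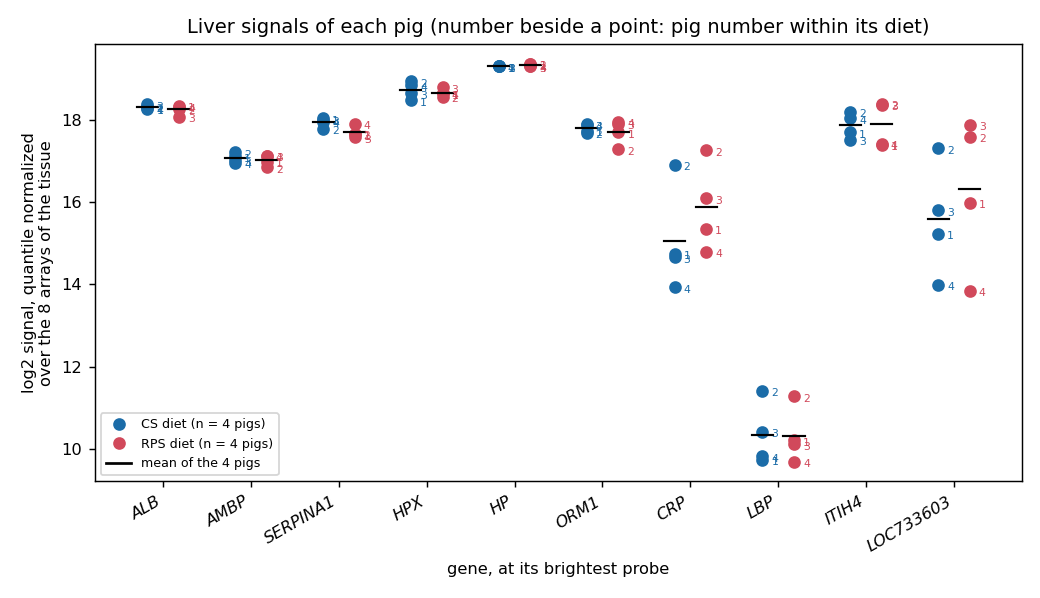
Liver log2 signals at the brightest probe of each gene (vertical axis) for each pig, numbered within its diet, with the mean of 4 pigs as a bar. The carriers ALB, AMBP, HPX, HP and ORM1 form tight clusters, while CRP, LBP, ITIH4 and LOC733603 spread over both diets with pig 2 of each diet at or near the top. The HP probe shown ranged 1.04-fold, whereas its other probes ranged 1.42-fold to 1.64-fold. Brightness differed too, with AMBP at 16.3% to 20.7% and LBP at 0.144% to 0.471% of the saturation value, and its part was not tested.

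The second diet comparison asked the same of the colonic mucosa. None of the 35 probes passed both thresholds, against 2.94% of all probes, and none had an adjusted p under 0.05 (limma, lowest 0.804). In this limma fit 1 of 35 had an unadjusted p under 0.05, against 5.42% of all probes, and 0 of all 43603 probes had an adjusted p under 0.05. Diet groups did not overlap at 2 ALB probes, both higher with RPS and both dim on every colon array, against 6.51% of all probes, 5.08% as higher. Their differences were 0.13 (A_72_P580128) and 0.05 (A_72_P583252) and depend on normalization. Before it, A_72_P580128 gave 2.22 to 2.37 with CS and 1.74 to 2.23 with RPS. A_72_P583252 then gave 2.01 to 2.14 with CS and 1.54 to 1.99 with RPS. Differences ran from -0.82 to 1.58 with a median close to 0.

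SERPINA1 had the widest spread of the measured members in the colon. A_72_P173811 gave 7.50, 7.01, 6.57 and 7.39 with CS and 9.15, 5.20, 8.82 and 10.20 with RPS. A_72_P795910 gave 6.58, 6.19, 5.66 and 6.47 with CS and 8.23, 4.32, 7.84 and 9.12 with RPS. At both probes RPS pigs 1, 3 and 4 were above every CS pig and RPS pig 2 was below every CS pig. The difference was 1.22 ± 1.01 (unadjusted p = 0.262, limma, and exact permutation p = 0.343) at the first probe and 1.15 ± 0.97 at the second, with a 31.9-fold and a 27.7-fold range over the 8 pigs.

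RPS pig 2 and CS pig 3, the lowest of their diets for SERPINA1, were the pair of arrays low in epithelium markers. Without both arrays, SERPINA1 was higher with RPS by 2.10 ± 0.39 and 1.99 ± 0.35 at its 2 probes, 4.28-fold and 3.96-fold (unadjusted p = 0.00249 and 0.00192, adjusted p = 0.292 and 0.282, limma). Without RPS pig 2 alone the differences were 2.27 and 2.17 (adjusted p = 0.223 and 0.219), and without CS pig 3 alone neither probe passed. This choice of arrays was made after the values were seen. It kept RPS pig 4, the highest for SERPINA1, which was also low at some epithelium markers. Without the pair 4 of 35 probes passed both thresholds, all higher, against 5.47% of all probes (2.49% as higher). They were both SERPINA1 probes, HPX and 1 ALB probe that was dim on all colon arrays. The sum of the hepatocyte markers was 464 to 676 on the RPS and 393 to 870 on the CS colon arrays, and 3 of 10 macrophage, 2 of 4 fibroblast and 1 of 9 T cell markers fell with RPS while none of these rose, against 2.61% of all genes in either direction. C1QB and C1QC, complement chains of macrophages, fell by 1.27 and 1.30. Their part in the SERPINA1 values, and that of the other cell types, was not tested.

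**Figure D4:**
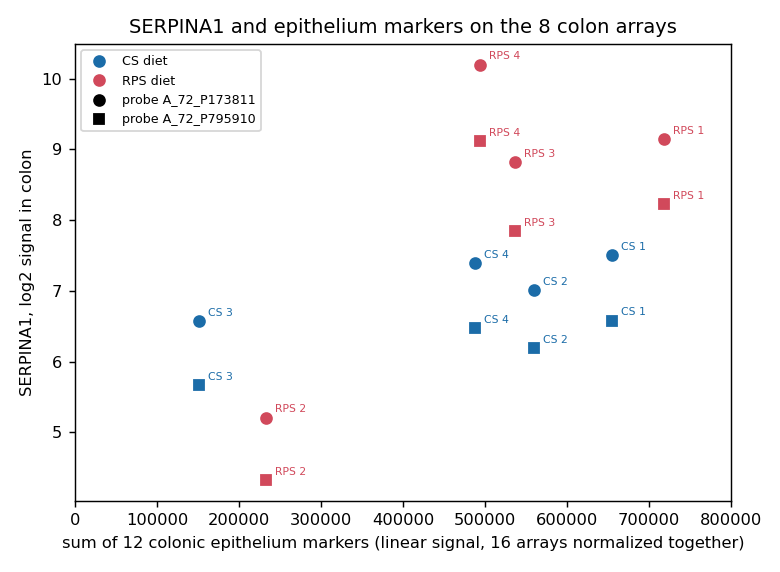
SERPINA1 log2 signal at its 2 probes (vertical axis) against the summed linear signal of 12 colonic epithelium markers (horizontal axis) on the 8 colon arrays. CS pig 3 and RPS pig 2 lie apart at 150996 and 232765 with the lowest SERPINA1 of their diets, and among the other 6 arrays the RPS pigs lie above the CS pigs at each probe. LGALS4, the brightest marker, weighs most in this sum.

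HPX was the only member with an unadjusted p under 0.05 for diet in the colon. Its only probe is shown because this value and the difference between tissues below rest on it.
A_72_P302769: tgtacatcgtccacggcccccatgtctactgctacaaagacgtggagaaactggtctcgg
Its values were 5.13, 5.56, 5.16 and 5.40 with CS and 6.05, 5.43, 5.93 and 5.93 with RPS. RPS pig 2 lay within the CS range and the other RPS pigs lay above it. The difference was 0.52 ± 0.17 (unadjusted p = 0.0179, adjusted p = 0.804, limma, and exact permutation p = 0.0571), a fold change of 1.44 that stayed below 1.5. Without the pair of arrays low in epithelium markers it was 0.60 ± 0.14 (unadjusted p = 0.00640, adjusted p = 0.353).

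The members near or below background in the colon gave larger but less certain differences. ORM1 was above background on 1 RPS array only, and its single probe is shown because the largest diet difference in the colon was read there.
A_72_P247587: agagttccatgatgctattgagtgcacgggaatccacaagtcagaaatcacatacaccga
Its values were 0.96, 0.98, 2.01 and 1.10 with CS and 2.20, 2.43, 4.92 and 1.82 with RPS, a difference of 1.58 ± 0.68 (unadjusted p = 0.0522, limma, and exact permutation p = 0.0571). RPS pig 3 was the highest of the 8 pigs. AMBP differed by 1.11 ± 0.64 (unadjusted p = 0.125) and was above background on 1 of 8 arrays. Without the pair of arrays low in epithelium markers ORM1 differed by 1.93 ± 0.84 and AMBP by 0.88 ± 0.80. Over all alternatives of processing the difference ran from 0.16 to 1.97 for ORM1 and from 0.06 to 1.62 for AMBP. Overlapping ALB probes show how far such values scatter, and the run of 39 bases shared by 3 of them is in capitals.
A_72_P569539: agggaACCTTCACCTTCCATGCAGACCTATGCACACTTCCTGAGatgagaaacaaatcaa
A_72_P575875: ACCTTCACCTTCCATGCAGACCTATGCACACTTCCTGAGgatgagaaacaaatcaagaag
A_72_P561100: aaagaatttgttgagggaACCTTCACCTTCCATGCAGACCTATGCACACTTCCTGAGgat
In the liver these probes differed between diets by 0.07, -0.01 and 0.09. In the colon they differed by 0.93, -0.33 and 0.30, although they read nearly the same stretch, and they were above background on none, 2 and none of the 8 arrays. Without the pair, A_72_P569539 differed by 1.43 ± 0.44. Over all 20 ALB probes and 8 arrays diet differences in the colon ran from -0.82 to 0.93. At 14 of the 20 ALB probes at least 15 bases in a row were shared with another ALB probe, so that the probes are not independent.

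None of the acute-phase genes measured on all colon arrays passed by diet, and their errors differed widely. CRP gave 7.67, 7.61, 6.98 and 7.20 with CS and 7.42, 7.31, 7.27 and 7.38 with RPS, a difference of -0.02 ± 0.17. LBP gave 7.12, 5.58, 4.95 and 5.54 with CS and 5.68, 4.89, 5.70 and 5.87 with RPS, a difference of -0.26 ± 0.47. LOC733603 gave 13.60, 11.22, 11.79 and 10.22 with CS and 11.46, 13.07, 11.09 and 8.06 with RPS, a 46.5-fold range with a difference of -0.79 ± 1.15, a 1.73-fold lower mean with RPS that these arrays could not tell from 0. The CRP range in the colon, 1.61-fold, was narrow beside its 9.99-fold range in the liver. The 4 HP probes measured on every colon array differed by -0.19 to -0.03 and the ITIH4 probe by -0.13 ± 0.32. Groups overlapped for all of these. Without the pair of arrays low in epithelium markers LOC733603 differed by -1.49 ± 1.28 (2.81-fold, unadjusted p = 0.294, limma), CRP by -0.14 ± 0.16 and LBP by -0.33 ± 0.46. The brightest HP probe then differed by -0.05 ± 0.18 and that of ITIH4 by -0.05 ± 0.41.

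**Figure D5:**
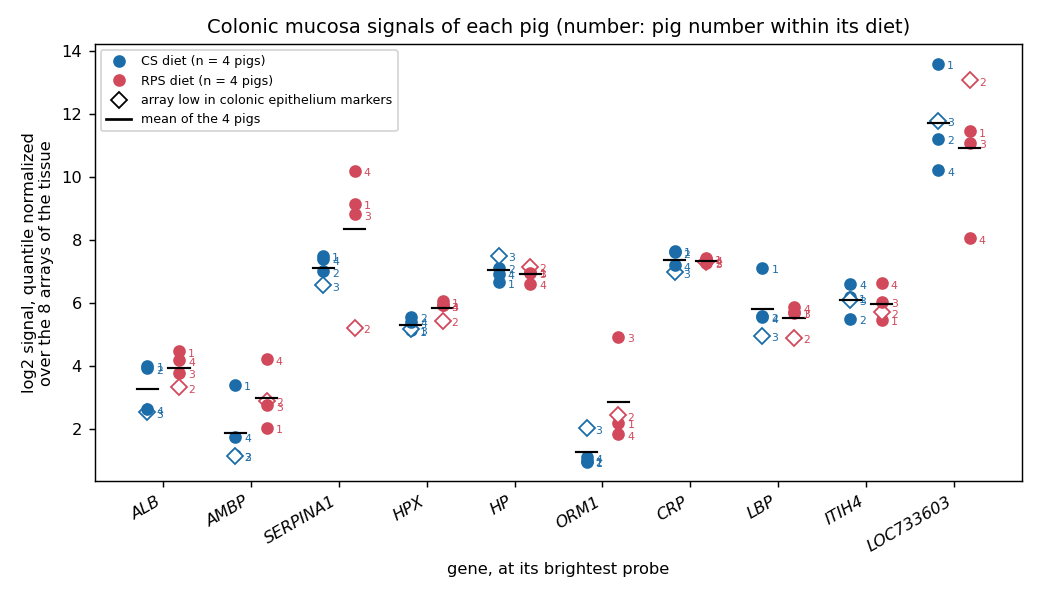
Colonic mucosa log2 signals at the brightest probe of each gene (vertical axis) for each pig, numbered within its diet, with the mean of 4 pigs as a bar and the arrays low in epithelium markers as open diamonds. SERPINA1 of RPS pigs 1, 3 and 4 lies between 8.82 and 10.20, above the CS pigs at 6.57 to 7.50, with RPS pig 2 at 5.20, and LOC733603 spreads from 8.06 to 13.60 without separating the diets.

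The diet effects in colon and liver were then compared in a fit of all 16 arrays. HPX was the only one of the 35 probes to pass an unadjusted p under 0.05 with a ratio above 1.5, against 3.76% of all probes, 2.04% as higher in the colon. Its diet effect was 0.60 ± 0.22 higher in the colon than in the liver (unadjusted p = 0.0153, adjusted p = 0.900, limma), and this call was lost in 10 of 22 alternatives. For SERPINA1 the difference of the diet effects was 1.49 ± 1.07 and 1.51 ± 1.03 (unadjusted p = 0.185 and 0.164). Without the pair of arrays low in epithelium markers it was 2.38 and 2.37 (adjusted p = 0.0833 and 0.0563), and 6 of 35 probes passed, all higher in the colon, against 5.97% of all probes, 2.91% as higher. These were both SERPINA1 probes, HPX, ORM1 and the ALB probes A_72_P569539 and A_72_P620130, of which ORM1 was above background on 1 colon array and both ALB probes on none. No adjusted p of a member was under 0.05 in either fit, against 0.00229% of all probes in the fit of 16 arrays.

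Other genes of the same system were read at 1 probe per gene from lists of general knowledge. Of 22 further positive acute-phase proteins measured, 20 were lower in the colon than in the liver, against 22.4% of all genes lower and 30.1% higher. The median difference of the 22 was -6.49 against 0.11 over all genes. Among the 22 was SAA3, read at the LOC733603 probe A_72_P165616 given above and counted here again. The fibrinogen chains FGA and FGG were above background on no colon array and were at least 16119-fold and 34919-fold lower there. By diet, none of the 22 changed in the liver, against 3.24% of genes, and 1 fell in the colon, against 2.61%. This was SERPING1, the C1 inhibitor, with -0.99 ± 0.20 (unadjusted p = 0.00167, adjusted p = 0.450, limma). All 11 measured further carriers were lower in the colon, TTR (transthyretin) at least 36848-fold and AFM (afamin) at least 3049-fold, neither above background on any colon array. SERPINA7, the thyroxine-binding globulin, fell with RPS in the liver by 0.71 ± 0.17 (unadjusted p = 0.00368, adjusted p = 0.398, limma). It was the 1 of 11 carriers that passed by diet there, against 3.24% of all genes. None of the 11 passed by diet in the colon, against 2.61%.

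Of 24 measured cytokines, receptors and transcription factors of the acute-phase response, 9 were higher and 10 lower in the colon. Over all genes 30.1% were higher and 22.4% lower. IL1A, above background on 1 of 8 liver arrays, and IL1B were higher in the colon by 5.50 and 3.99, while CEBPB, a C/EBP factor, was lower with a difference of -3.20. ONECUT1, a hepatocyte factor, was dim on all colon arrays and at least 1365-fold lower there. By diet in the colon, 1 of 24 changed, against 2.61% of all genes. This was OSM, a cytokine of the interleukin 6 family, which rose with RPS by 1.06 ± 0.25 (unadjusted p = 0.00321, adjusted p = 0.517, limma). In the liver, 1 of 24 changed and was lower with RPS, against 3.24% of all genes. Of 4 measured bile duct markers, a separate list, 1 passed by diet in the liver, against 3.24% of all genes. This was SOX9, above background on 7 of 8 liver arrays, which fell with RPS by 1.13 ± 0.43 (unadjusted p = 0.0316, adjusted p = 0.600, limma). Of 12 measured receptors and partners, 4 were higher and 7 lower in the colon, against 30.1% and 22.4% of all genes. CD14, the receptor to which LBP hands lipopolysaccharide, was lower there with a difference of -5.86, as was HABP2, a serine protease that binds hyaluronan, which was dim on all colon arrays and at least 2609-fold lower. MYD88, an adaptor of Toll-like receptors, was higher in the colon by 1.15 and TNFAIP6, a partner of the inter-alpha-inhibitor family, by 2.95. By diet, 1 of 12 passed in the liver, against 3.24% of all genes, and none in the colon, against 2.61%. TNFAIP6 was the 1 that passed. It was above background on 3 of 8 liver arrays, where its RPS minus CS value was 1.24 ± 0.49 (adjusted p = 0.622).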

How the data were processed

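Colonic mucosa samples of 4 pigs per diet and liver samples of 4 pigs per diet were hybridized on 16 one-colour arrays. The authors deposited scanner files of Feature Extraction 10.7 (submitters' processing notes), whose background-subtracted spot intensity is not normalized between arrays, and a set of log2 values quantile normalized in GeneSpring. The genome build was not given in the sources used here. Control spots were left out and outlier spots set to missing (none at these probes). The intensities were put on the log2 scale and quantile normalized, within a tissue for diet and over 16 arrays for tissue. Each probe was fitted with limma 3.58.1 (lmFit, eBayes; R 4.3.3), with Benjamini-Hochberg adjustment over all 43603 probes and no filter on signal. Diet effects were called at the thresholds the study used for the colon, a fold of more than 1.5 and an unadjusted p below 0.05. The test was limma in place of the study's Student's t-test. The difference of diet effects between tissues, which the study did not describe, was called at the same thresholds. Tissue differences were called at that fold and an adjusted p below 0.05. Exact permutation tests were two-sided, and 4 against 4 pigs cannot give less than 0.0286. Array number and signal over background limit the precision. Where a probe was dim on all colon arrays, its fold was given as a bound that takes, per colon array, the higher of its own signal and the lowest signal above background.

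Each gene was read at the probe with the highest mean over 16 arrays, with the others as a range. Names came from the scanner files and RefSeq gene annotation (Sscrofa11.1, names and neighbours only), and 13142 probes had a symbol. From each list, up to 4 genes per comparison that passed were named, those with the smallest p and at most 2 per direction. Some items that this rule names are not reported here. Members and lists (further positive acute-phase proteins, further carriers, regulators, receptors and partners, and markers of hepatocytes, of bile duct, of colonic epithelium, of immune cells, of fibroblasts, of endothelium and of blood) were chosen with earlier results of these data known. The study's methods call the 4 samples of a group biological replicates. The fits were tested on simulated data. Figures were drawn with matplotlib 3.10.9. Alternatives were other scalings, background correction, the deposited log2 values, filters, tests, thresholds, a replicate block and leaving out each array.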

Additional observations from a re-analysis of the deposited data

Results flagged for a closer look

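HPX differed between tissues in its diet effect, by 0.60 on the log2 scale (unadjusted p = 0.0153, adjusted p = 0.900, limma, 4 pigs per diet and tissue). The ratio of 1.52 was just above 1.5, and the call was lost in 10 of 22 alternatives. HPX was near equal between diets in the liver and 0.52 higher with RPS in the colon. The colon value depends on normalization, before which HPX signals there were 43.4 to 61.4 with CS and 38.0 to 49.2 with RPS.

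In groups of 4 pigs, 40 sets of values of the members and LOC733603 were examined for a pig far from the others, and 1 was found, where chance gives about 1 in 20. With HAMP, APCS and MBL2, which were picked for their spread, there were 2 in 46 sets. For ORM1 in colon CS, pig 3 lay above the others at 2.01 against 0.96 to 1.10, a gap of 0.87 of the whole range of the 4 values, but no array of that group was above background. For HAMP in liver RPS, pig 1 lay below the others by a gap of 0.939 of the whole range. HAMP was read after its values were seen.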

How the results depend on the processing

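Of the 35 probes, 1 changed by diet in the liver. That number became 0 with all 16 arrays in 1 fit, with a threshold of adjusted p under 0.05 and with a threshold of fold above 2, and it was 1 without any single array. In the colon the 0 of the report became 2 with scaling to the 75th percentile (ORM1 and the ITIH4 probe A_72_P232272). It became 1 with an intensity trend in eBayes (ORM1) and 2 with all 16 arrays in 1 fit (ORM1 and the ALB probe A_72_P569539). These ITIH4 and ALB probes were above background on no colon array, and ORM1 was above it on 1. Without the pair of arrays low in epithelium markers, an alternative chosen after seeing the data, the number became 4. Without single arrays it ran from 0 to 3, the 3 being HPX and both SERPINA1 probes without RPS pig 2. The 1 probe whose diet effect differed between tissues became 2 with normexp background correction and 6 without the pair of arrays, and ran from 0 to 3 without single arrays. That probe, HPX, was lost in 10 of 22 alternatives (0.30 to 0.74 over all of them), also without colon CS pig 3, where the 1 probe was a dim ALB probe (A_72_P569539). All 35 probes stayed lower in the colon under every alternative run. Scaling to the 75th percentile made 69.0% of all called probes in the colon higher with RPS, against 55.2%. No result changed direction past its test. The cause of these changes was not tested. With the replicate number as a block the liver gave 2 probes (ALB and CRP) and the colon 1 (ORM1), but the labels do not tie the numbers to pigs, and deviations of same-numbered samples of the 2 diets correlated from -0.16 to 0.11 in the liver and from -0.51 to 0.55 in the colon. Same-numbered colon and liver samples correlated from 0.16 to 0.33 with CS and from -0.08 to 0.07 with RPS. Low signal over background limits ALB, AMBP, ORM1 and the dimmer ITIH4 probes in the colon.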

Other observations

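HAMP encodes hepcidin, the iron-regulating peptide that liver makes in the acute-phase response, and it was on the list of further positive acute-phase proteins. In the liver its brightest probe gave 16.3, 16.9, 16.1 and 16.5 with CS and 8.35, 16.9, 16.8 and 16.4 with RPS, all above background. RPS pig 1 was 215-fold below the lowest of the other 7 livers, and a second HAMP probe gave 199-fold. On that array CRP was at 15.36 and LOC733603 at 15.97, each the fourth highest of the 8 livers, whereas ITIH4 at 17.40 was the lowest at its brightest probe and SERPINA1 at 17.64 was the second lowest.

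APCS, the serum amyloid P component, and MBL2, a mannose-binding lectin, also varied widely between livers, and they were picked for that spread after it was seen. APCS ranged 37.5-fold, from 11.8 in CS pig 4 to 17.1 in RPS pig 3, and MBL2 ranged 13.1-fold, from 10.03 in CS pig 4 to 13.74 in RPS pig 4. CS pig 4 was the lowest liver for both, and it was the lowest for CRP as well.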
